A study of Mus musculus with 16 samples.

Results

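The Hedgehog genes described here are 9 genes measured in mouse neural stem cells: the transcription factors Gli1, Gli2 and Gli3, the receptor Ptch1, the signal transducer Smo, the inhibitors Sufu and Hhip, and the coreceptors Boc and Cdon. They were chosen from results of these same RNA-seq libraries, with their differences between the labelled batches already in view. Each library counts 57132 genes, of which 17704 passed the filter on low counts, and all 9 members were among them. Values between batches are therefore a description of the 9 members, with no test.

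All libraries came from neural stem cells in the growth condition labelled GF, which the study describes as self-renewing. Libraries labelled gRNA came from cells treated with TAPIR and libraries labelled control from cells without it. The labels do not say what TAPIR is, what the gRNA targets, or from which strain, age or derivation the cells came. The 12 RNA-seq libraries fall into 2 labelled batches, each with 3 gRNA and 3 control libraries, numbered here from 1 to 3 only as names. No label says that libraries of one group came from separate cultures, so a p-value measures only the spread between these libraries, which may be technical. The labelled batch cannot be told apart from any other way in which the cells of the batches differed. Ribosome footprints were not analysed here, so every value is an RNA level.

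Hedgehog ligands bind Ptch1, which otherwise holds Smo inactive, and the coreceptors Boc, Cdon and Gas1 help the ligand to bind. Active Smo gathers in the primary cilium and releases the Gli factors from Sufu: Gli2 is mainly turned into an activator, Gli3 is mainly cut into a repressor when no ligand is present, and Gli1 is an activator that is itself a transcriptional target. Ptch1, Hhip and Gli1 are textbook target genes. In the developing ventral neural tube the pathway sets progenitor identity, and in postnatal brain it is known for sustaining neural stem cells.

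The libraries held 8414028 to 19454390 counts in genes. Of the neural stem cell markers, Sox2 was between 126 and 191 CPM and Nes between 450 and 803 CPM over the 12 libraries. CPM is the count scaled to a common library size, with sizes adjusted by the trimmed mean of M values (TMM), and is not divided by gene length, so a level is compared between libraries and never between genes. Of the 12 neural stem cell markers, 9 were called lower in batch 2 by edgeR, 1 higher (Hes5) and 2 not (Sox2 and Nes), with a median log2 difference of -0.41; over all genes tested 28.4% were called higher and 33.1% lower. The lowest was Prom1, at 4.24 to 8.08 CPM in batch 1 and 0 to 0.947 CPM in batch 2, with 0 counts in gRNA library 3. Vim, also called lower, had 3451 counts (458 CPM) in control library 2 of batch 1, which had the fewest counts in genes. In control library 3 of batch 1, which had the most, it had 4138 counts (216 CPM). Fabp7 (180 and 88.1 CPM) and Slc1a3 (806 and 402 CPM) fell likewise, while Sox1 (127 and 140 CPM) did not. The part of depth in the batch differences of these markers was not tested.

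Of marker lists for other cell types, the summed level of 6 astrocyte markers was 429 to 670 CPM in batch 1 and 103 to 268 CPM in batch 2, and 4 of the 6 were called lower. S100b went the other way and was called higher, at 7.16 to 12.6 CPM in batch 1 and 20.9 to 52.9 CPM in batch 2. The sum of 8 endothelial and mural markers was 67.9 to 171 CPM and 3.94 to 8.59 CPM, in that order, and nearly all of it in batch 1 was Acta2, at 57.9 to 164 CPM there and 0.123 to 1.09 CPM in batch 2. Of the 5 tested genes of that list 4 were called lower, and Kdr was not called, at 1.19 to 4.12 CPM and 2.4 to 6.04 CPM. The sum of 11 fibroblast and mesenchyme markers was 406 to 552 CPM in batch 1 and 130 to 160 CPM in batch 2, but of its 6 tested genes 3 were called higher and 3 lower. Prrx1, Thy1 and Fbn1 were the 3 lower ones, while Tbx18 was at 1.3 to 2.91 CPM in batch 1 and 40.7 to 55.8 CPM in batch 2. The sum of 8 oligodendrocyte lineage markers was lower in batch 1, at 162 to 201 CPM, than in batch 2, at 308 to 564 CPM. Of the 5 tested genes of that list 4 were called higher and 0 lower. Neuron markers summed to 691 to 995 CPM and 624 to 781 CPM, most of it Map2, at 600 to 918 CPM over all libraries and not called. Of the 7 tested neuron markers 5 were called lower, with a list median of -3.64 on the log2 scale, among them Syt1 at 15.9 to 22.6 CPM and 0.364 to 1.11 CPM. Tubb3 went the other way and was called higher, at 2.1 to 4.44 CPM in batch 1 and 13.6 to 26.2 CPM in batch 2. Ependymal markers summed to 55.8 to 75.7 CPM and 29.2 to 39.1 CPM, and microglia markers to at most 6.57 CPM in any library. Sox10, which defines the oligodendrocyte lineage, was at most at 1.1 CPM, and the endothelial gene Pecam1 at most at 1.07 CPM. Other genes of the oligodendrocyte list were not near the floor. Pdgfra was at 10.8 to 25.2 CPM in batch 1 and 28.7 to 106 CPM in batch 2, and Cspg4 at 62.1 to 89.7 CPM and 139 to 196 CPM. The astrocyte intermediate filament gene Gfap was at 31.3 CPM in control library 3 and 40.8 CPM in gRNA library 3 of batch 2, against 0.391 to 1.35 CPM in the other 4 libraries of that batch. The part of these markers in the batch differences of the Hedgehog genes was not tested. In such bulk libraries, fewer cells of a type and less RNA per cell cannot be told apart.

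Gli3, whose protein is the main repressor of the pathway, was present in batch 1 and nearly missing from batch 2. In batch 1 it was at 76.0, 62.1 and 117 CPM in control libraries 1, 2 and 3 and at 58.2, 76.9 and 112 CPM in the gRNA libraries. In batch 2 it was at 1.5, 2.16 and 1.24 CPM in the control libraries and at 2.18, 2.91 and 3.76 CPM in the gRNA libraries. The highest library of batch 2 lay far below the lowest library of batch 1, and the values of batch 2 rest on only 17 to 52 counts per library. The mean was 83.7 ± 25.1 CPM in batch 1 and 2.29 ± 0.929 CPM in batch 2 (SD, n = 6 each), and the fitted log2 difference, batch 2 minus batch 1, was -5.21 (95% interval -5.77 to -4.65), or 36.9-fold lower. That difference was larger in size than that of 96.4% of the 17704 genes tested. It was -5.67 among the control libraries alone and -4.80 among the gRNA libraries alone.

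Gli2, the main activator, also had its batches apart, by much less. It was at 42.3, 41.3 and 65.2 CPM in the control libraries of batch 1, at 32.6, 48.5 and 67.0 CPM in the gRNA libraries of batch 1, at 21.1, 23.7 and 24.8 CPM in the control libraries of batch 2, while the gRNA libraries of batch 2 were at 19.8, 17.8 and 19.9 CPM. Every library of batch 2 was below every library of batch 1, and within batch 1 both libraries numbered 3 were the highest. The batch means were 49.5 ± 13.8 CPM and 21.2 ± 2.63 CPM (SD, n = 6 each), a log2 difference of -1.23 (95% interval -1.59 to -0.88).

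Gli1, the activator that reads out the pathway, differed in the opposite direction. It was at 0.637, 1.19 and 1.36 CPM in the control libraries of batch 1, at 0.399, 0.879 and 1.19 CPM in the gRNA libraries of batch 1, at 2.93, 3.27 and 8.23 CPM in the control libraries of batch 2, while the gRNA libraries of batch 2 were at 3.18, 2.61 and 4.34 CPM. Every library of batch 2 was above every library of batch 1, and control library 3 of batch 2 was the highest of all. The level was low throughout, with 4 to 26 counts per library in batch 1 and 39 to 113 in batch 2. The log2 difference was 2.06 (95% interval 1.37 to 2.75), or 4.17-fold, and 1.64 without both libraries numbered 3 of batch 2.

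Gli1 and Gli3 differed in opposite directions, so their balance within a library shifted by more than each level. The log2 ratio of Gli1 to Gli3 counts ran from -7.02 to -5.62 in batch 1 and from -0.16 to 2.7 in batch 2, a mean shift of 7.27. The log2 ratio of Gli2 to Gli3 counts ran from -0.84 to -0.59 in batch 1 and from 2.39 to 4.29 in batch 2, a mean shift of 4.03. Gli1 against Gli2 shifted by 3.24 in the same direction. A ratio of counts carries the lengths of both genes, so its shift between batches can be read and its absolute size cannot.

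**Figure D1:**
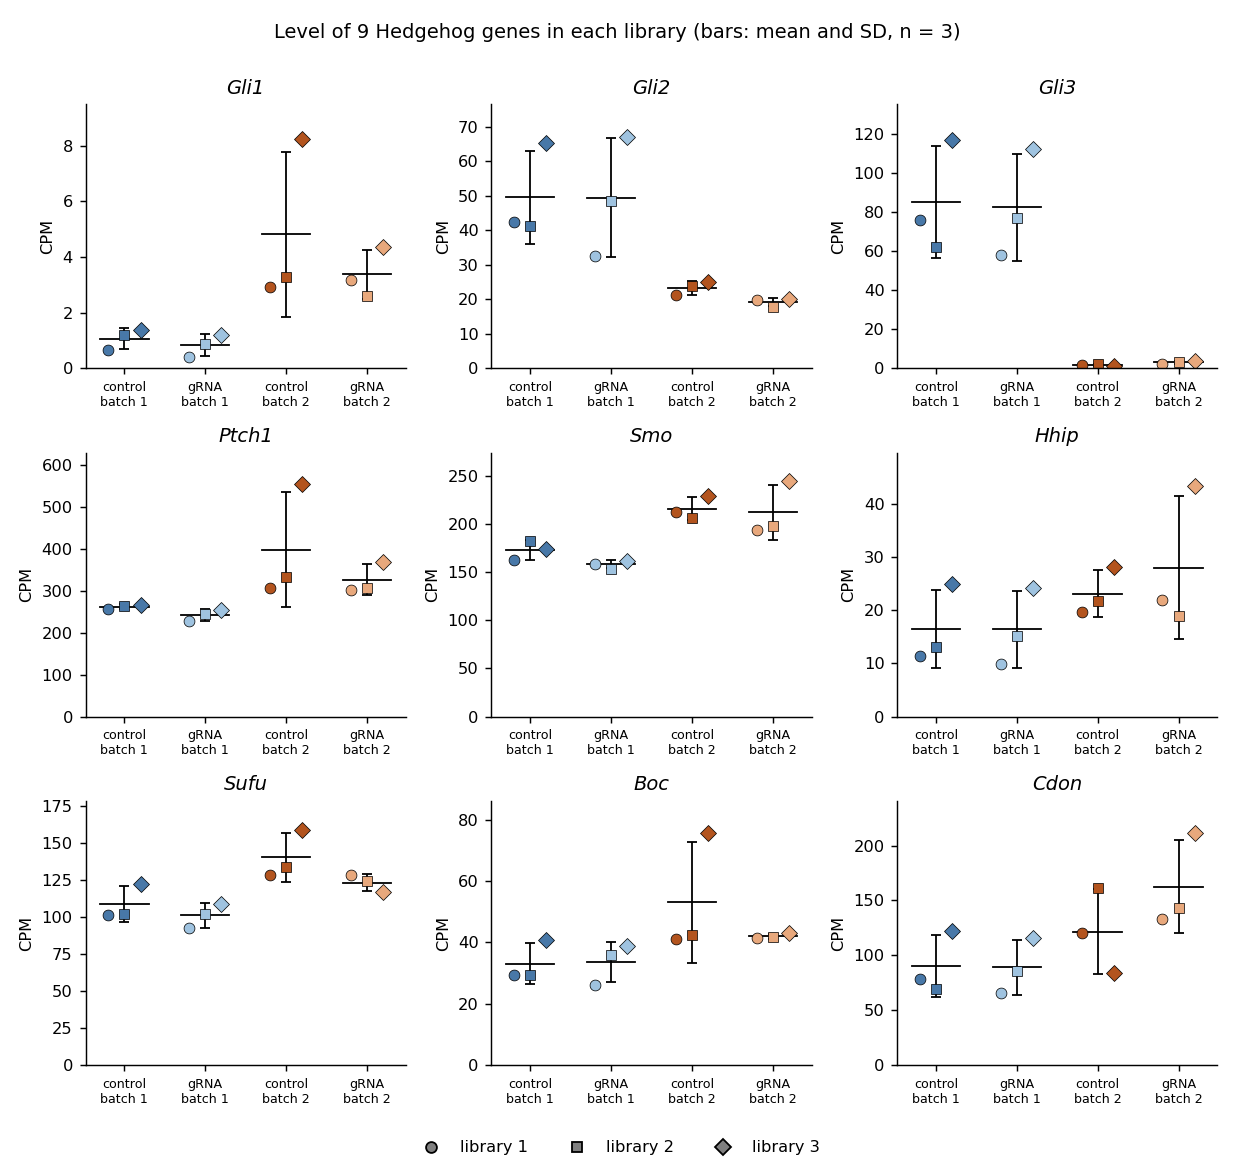
Level of each of the 9 Hedgehog genes in each library, in CPM on a linear axis from 0, with control and gRNA libraries of batch 1 in dark and light blue and of batch 2 in dark and light orange; symbols mark the library number, and bars show the mean and SD of 3 libraries. Gli3 lies between 58.2 and 117 CPM in batch 1 and between 1.24 and 3.76 CPM in batch 2, while Gli1 is higher in every library of batch 2.

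The sequences just before the start of the genes for both of these lower factors are shown because Gli2 and Gli3 are the members whose RNA was lower in batch 2. They are the 250 bases before the RefSeq transcript start on build GRCm38.p6, chr1:119053620-119053869 on the minus strand for Gli2 and chr13:15463473-15463722 on the plus strand for Gli3, and the counts themselves were made on another build. Each is printed 5′ to 3′ on the gene's strand, and the capitals mark the one match to the core of the GLI binding motif.
Gli2: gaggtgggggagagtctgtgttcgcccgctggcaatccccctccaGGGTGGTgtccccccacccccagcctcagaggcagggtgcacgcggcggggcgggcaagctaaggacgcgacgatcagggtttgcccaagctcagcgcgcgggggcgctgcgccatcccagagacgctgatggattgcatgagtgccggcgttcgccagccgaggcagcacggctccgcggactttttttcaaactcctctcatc
Gli3: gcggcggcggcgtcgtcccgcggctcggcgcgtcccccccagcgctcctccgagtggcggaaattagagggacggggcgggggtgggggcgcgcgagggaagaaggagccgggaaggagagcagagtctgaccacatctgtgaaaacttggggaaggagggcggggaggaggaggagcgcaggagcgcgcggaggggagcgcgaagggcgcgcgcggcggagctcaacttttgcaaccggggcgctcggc
The core searched was ACCACCC, on both strands, which lies within the longer consensus GACCACCCA that was also searched. The match before Gli2 is on the opposite strand, 205 bases before the start, and no match is in this window before Gli3. Of the 7 members with a RefSeq entry, which leaves out Gli1 and Boc, 1 held the core and 0 the consensus. Among all 32851 RefSeq promoter windows of that length, 3.92% held the core and 0.225% the consensus. The Gli3 window is 72.8% G or C with 34 CpG and the Gli2 window 67.2% with 22 CpG, while the median over all windows is 52.4% and 6 CpG.

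Ptch1, the receptor that the ligand inactivates and at the same time a target gene, was higher in batch 2. It was at 256, 264 and 266 CPM in the control libraries of batch 1, at 228, 244 and 255 CPM in the gRNA libraries of batch 1, at 305, 334 and 555 CPM in the control libraries of batch 2, while the gRNA libraries of batch 2 were at 302, 307 and 369 CPM. The batches did not overlap, and control library 3 of batch 2 stood well above the rest. The log2 difference between batches was 0.52 (95% interval 0.25 to 0.79), and 0.32 without both libraries numbered 3 of batch 2.

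Smo, the transducer that Ptch1 restrains, ranged from 154 to 183 CPM in batch 1 and from 194 to 245 CPM in batch 2. Its control libraries were at 163, 183 and 174 CPM in batch 1 and 213, 207 and 230 CPM in batch 2, and its gRNA libraries at 159, 154 and 162 CPM, then 194, 199 and 245 CPM. All 6 libraries of batch 2 were above all 6 of batch 1, with a log2 difference of 0.37 (95% interval 0.22 to 0.52). Among the 9 members, Smo had the smallest ratio of highest to lowest library within batch 2, at 1.26.

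Sufu and Hhip are the inhibitors among the members: Sufu holds the Gli factors in the cytoplasm, and Hhip binds ligand at the cell surface. Sufu was at 101, 102 and 123 CPM in the control libraries of batch 1, at 92.2, 102 and 109 CPM in the gRNA libraries of batch 1, at 128, 134 and 159 CPM in the control libraries of batch 2, while the gRNA libraries of batch 2 were at 128, 124 and 117 CPM. The batches overlapped, because control library 3 of batch 1 was above gRNA library 3 of batch 2, and the log2 difference was 0.32 (95% interval 0.16 to 0.49). Hhip was at 11.5, 13.1 and 25 CPM in the control libraries of batch 1, at 9.88, 15.2 and 24.2 CPM in the gRNA libraries of batch 1, at 19.7, 21.7 and 28.1 CPM in the control libraries of batch 2, while the gRNA libraries of batch 2 were at 21.9, 18.9 and 43.4 CPM. For Hhip the library numbered 3 was the highest in all 4 groups, and the batches overlapped. Its log2 difference was 0.62 (95% interval 0.05 to 1.18), and 0.30 without both libraries numbered 3 of batch 2.

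Boc and Cdon, related cell surface proteins that present ligand to Ptch1, were both higher on average in batch 2. Boc was at 29.2, 29.2 and 40.8 CPM in the control libraries of batch 1, at 26.2, 36 and 38.7 CPM in the gRNA libraries of batch 1, at 41.0, 42.3 and 75.8 CPM in the control libraries of batch 2, while the gRNA libraries of batch 2 were at 41.4, 41.7 and 43.0 CPM. The batches of Boc did not overlap, by a narrow margin, and control library 3 of batch 2 was again the highest. Its log2 difference was 0.49 (95% interval 0.14 to 0.84), and 0.32 without both libraries numbered 3 of batch 2. Cdon was at 78.8, 68.9 and 122 CPM in the control libraries of batch 1, at 65.4, 85.6 and 116 CPM in the gRNA libraries of batch 1, at 120, 161 and 84.0 CPM in the control libraries of batch 2, while the gRNA libraries of batch 2 were at 133, 143 and 211 CPM. Here control library 3 of batch 2 was the lowest of its batch, below both libraries numbered 3 of batch 1, so the batches overlapped. The log2 difference of Cdon was 0.65 (95% interval 0.22 to 1.08).

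Across the 9 members, 4 were higher in batch 2 with no overlap of libraries (Gli1, Ptch1, Smo and Boc), 2 were lower with no overlap (Gli2 and Gli3), and 3 overlapped. Of all genes tested, 17.3% lay wholly higher and 24.3% wholly lower in batch 2. The members were chosen with this contrast known, so nothing is read from their counts, their shared direction or their median. Outside the Gli factors the 6 members were higher in batch 2 by 0.32 to 0.65 on the log2 scale, and the median over the 9 members was 0.49. In size, the differences of those 6 exceeded those of 41.4% (Sufu) to 60% (Cdon) of all genes tested.

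The remaining genes of the pathway came from a list of 49 genes that holds no member, of which 47 were tested. In edgeR's quasi-likelihood test, 16 of the 47 were higher and 18 lower in batch 2 at an adjusted p under 0.05, and 13 were not called. Over all genes tested, 28.4% were called higher and 33.1% lower, so this list had shares near those of the whole transcriptome. Its median log2 difference was -0.05. With a minimum fold of 1.5 in the test, 5 were called higher and 9 lower, and among the control libraries alone 8 were called higher.

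The ligand side carried the largest of these differences. Shh, the ligand best known in the nervous system, was at 7.97 to 24.5 CPM in the control libraries and 5.72 to 21.5 CPM in the gRNA libraries of batch 1, against 0.451 to 1.17 CPM and 0.606 to 1.67 CPM, in that order, in batch 2. No library of batch 2 reached batch 1, and the log2 difference was -3.73 ± 0.43 (SE, adjusted p = 3.66e-06 by edgeR). Dhh, a second ligand, had 443 counts in batch 1 and 1 count in batch 2, a depth-scaled ratio of 472 with a counting interval of 84.4 to 18700. The third ligand, Ihh, was at no more than 0.664 CPM in any library and was not tested.

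Hhat, the acyltransferase that attaches palmitate to Hedgehog ligands, had 283 counts in batch 1 and 0 in batch 2. Taking 3 counts over batch 2 as the limit that a count of 0 allows, it was at least 101-fold lower there. Disp1, which releases the lipid-bearing ligand from the cell, was at 42.0 to 60.1 CPM in batch 1 and 52.6 to 64.2 CPM in batch 2, and its log2 difference of 0.19 ± 0.10 was not called (SE, adjusted p = 0.114 by edgeR). It was called without both libraries numbered 3 of batch 1, at 0.35 (adjusted p = 0.00845 by edgeR), without either of them alone, and with total counts as the only scaling. Over the 6 tested genes of ligand processing and release, 1 was higher, 3 were lower and 2 were not called.

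**Figure D2:**
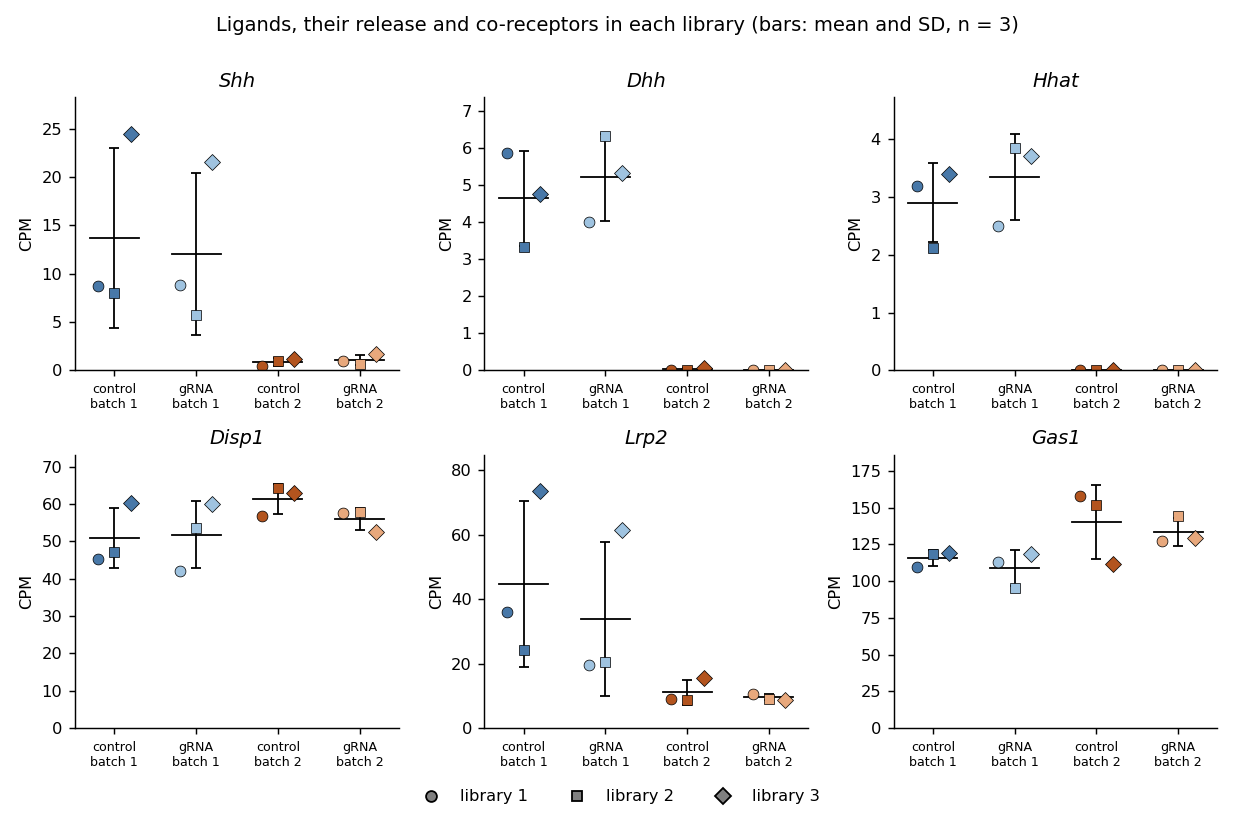
Level in CPM, on linear axes from 0, of the ligands Shh and Dhh, of Hhat and Disp1, which process and release ligand, and of the coreceptors Lrp2 and Gas1, drawn with the same colours, symbols and bars of mean and SD (n = 3) as for the members. Hhat is at 0 in all 6 libraries of batch 2, Dhh has 1 count there, and Disp1 overlaps between batches.

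Receptors and coreceptors outside the members differed between batches in both directions. Gas1, a coreceptor that acts beside Boc and Cdon, was higher in batch 2 by 0.29 ± 0.09 on the log2 scale (SE, adjusted p = 0.0116 by edgeR), a call lost among the control libraries alone. Gpc3, a glypican that competes for ligand, was higher by 1.48 ± 0.14 (SE). Lrp2, an endocytic receptor that binds Shh, was lower by a log2 difference of -1.93 ± 0.32 (SE, adjusted p = 0.000122 by edgeR). The glypicans Gpc4 and Gpc6 were lower too, with log2 differences of -2.03 ± 0.19 and -0.73 ± 0.09 (SE).

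Downstream of Smo the differences went both ways: of 33 tested genes of signal transduction, 12 were higher, 10 lower and 11 not called. Kif7, the ciliary kinesin that organises Gli proteins at the cilium tip, was higher in batch 2 by 0.65 ± 0.12 (SE, adjusted p = 0.00024 by edgeR). Gpr161, a ciliary receptor that keeps protein kinase A active, was higher by 0.41 ± 0.10, and Spop, an adaptor for the degradation of Gli2 and Gli3 protein, by 0.32 ± 0.07 (SE). Evc, a partner of Smo at the base of the cilium, had a log2 difference of -0.75 ± 0.07 (SE, adjusted p = 5.07e-07 by edgeR). Of the kinases that mark Gli proteins for processing, Gsk3b was lower, at -0.38 ± 0.10, and Prkaca was not called, at -0.12 ± 0.10 (SE, adjusted p = 0.345 by edgeR). Other casein kinase 1 and protein kinase A genes of the list went both ways, and are named only to show this. Csnk1d, Csnk1e and Csnk1g2 were called higher, Prkacb, Csnk1a1 and Csnk1g1 lower, and Prkar1a was not called. The calls of Gpr161 and Gsk3b were lost among the control libraries alone, where their adjusted p by edgeR was 0.0765 and 0.173.

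A list of 28 target genes, of which 20 were tested, had 6 called higher in batch 2, 10 lower and 4 not called, beside the same shares of 28.4% and 33.1% over all genes. Its members differed widely in size and direction. Foxf1, a forkhead factor induced by Hedgehog in mesoderm, had 1 to 6 counts per library in batch 1 and was at 22.9 to 28.1 CPM in batch 2, a log2 difference of 6.82 ± 0.21 (SE). Sfrp1, a secreted Wnt antagonist, was higher by 2.27 ± 0.23 (SE, adjusted p = 8.51e-07 by edgeR).

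Other target genes lay lower in batch 2. Mycn, which drives proliferation of neural precursors, was at 2.92 to 4.60 CPM in batch 1 and at 0.146 to 0.752 CPM in batch 2, with a log2 difference of -3.0 ± 0.28 (SE, adjusted p = 3.73e-07 by edgeR). The D-type cyclin genes Ccnd1 and Ccnd2 had log2 differences of -0.60 ± 0.20 and -0.99 ± 0.24 (SE, adjusted p = 0.0162 and 0.00259 by edgeR). The call of Ccnd1 was lost among the control libraries alone (adjusted p = 0.0793) and among the gRNA libraries alone (adjusted p = 0.0644), both by edgeR. Both cyclin genes were highest in control library 2 of batch 1, the library with the fewest counts in genes. Without that library the log2 differences were -0.40 for Ccnd1 and -0.78 for Ccnd2. The part of depth in them was not tested.

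Ventral identity genes of the target list did not share one pattern. Nkx2-2, a homeobox factor of the most ventral progenitors, was at 12.1 to 30.8 CPM in batch 1 and had 5 counts in all of batch 2, with a log2 difference of -8.53 ± 0.47 (SE, adjusted p = 1.97e-09 by edgeR). Nkx6-2, a related factor, had 239 counts in batch 1 and 0 in batch 2, at least 85-fold lower against the limit of 3 counts. Olig2, which marks the neighbouring progenitor domain and oligodendrocyte precursors, was present throughout, at 218 to 402 CPM in batch 1 and 184 to 234 CPM in batch 2. Its log2 difference of -0.36 ± 0.13 (SE, adjusted p = 0.0313 by edgeR) lost its call in 6 of the 12 fits that left out 1 library: control library 2 or gRNA library 1 of batch 1, or control library 1 or 2 or gRNA library 1 or 2 of batch 2. It also lost it within either treatment alone. Olig2 was at 402 CPM, with 3029 counts, in control library 2 of batch 1, which had the fewest counts in genes (8414028). In control library 3 of batch 1, which had the most (19454390), it was at 220 CPM with 4207 counts. Its counts thus rose by less than the depth, and the part of depth in its batch difference was not tested. Nkx2-1, Nkx6-1 and Foxa2 had at most 1 count in any library.

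A list named for dorsal identity holds genes of the patterning in which Gli3 is known to act, not all of them confined to dorsal progenitors. Of 17 genes on that list 8 were tested, and 3 were called higher, 4 lower and 1 not, beside 28.4% higher and 33.1% lower over all genes. The higher ones were Pax7, Irx3 and Irx5, and the lower ones Emx2, Lhx2, Dbx2 and Gsx1. Irx3, Irx5, Lhx2, Dbx2 and Gsx1 are named only to show which genes these counts hold. Pax7 had at most 6 counts in any library of batch 1 and was at 1.38 to 2.51 CPM in batch 2, with a log2 difference of 3.91 ± 0.42 (SE, adjusted p = 1.82e-06 by edgeR). Emx2, a homeobox gene of the dorsal forebrain, was lower, at 56.7 to 63.5 CPM in batch 1 and 19.3 to 24.1 CPM in batch 2, a log2 difference of -1.5 ± 0.07 (SE, adjusted p = 5.14e-10 by edgeR). Pax6, a factor of neural progenitors, was at 62.4 to 103 CPM over all libraries and was not called, at 0.11 ± 0.10 (SE, adjusted p = 0.371 by edgeR). Pax3 had 0 counts in all 12 libraries, which by the limit used above allows up to 3 counts over each batch, and Gsx2 and Msx1 were too low to be tested.

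Genes of the primary cilium, the organelle in which the pathway signals, formed a list of 61 genes. Of these 60 were tested, and 13 were called higher, 13 lower and 34 not, beside 28.4% higher, 33.1% lower and 6825 of 17704 not called over all genes, with a median log2 difference of -0.02. The intraflagellar transport gene Ift88 had a log2 difference of -0.09 ± 0.10, the ciliary membrane GTPase gene Arl13b of -0.13 ± 0.09, and the kinesin motor gene Kif3a of -0.04 ± 0.11 (SE), with adjusted p of 0.468, 0.205 and 0.774 by edgeR. Bbs5, a subunit of the BBSome that moves ciliary cargo, was chosen after its values were seen: it had 636 counts in batch 1 and 0 in batch 2, at least 226-fold lower.

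**Figure D3:**
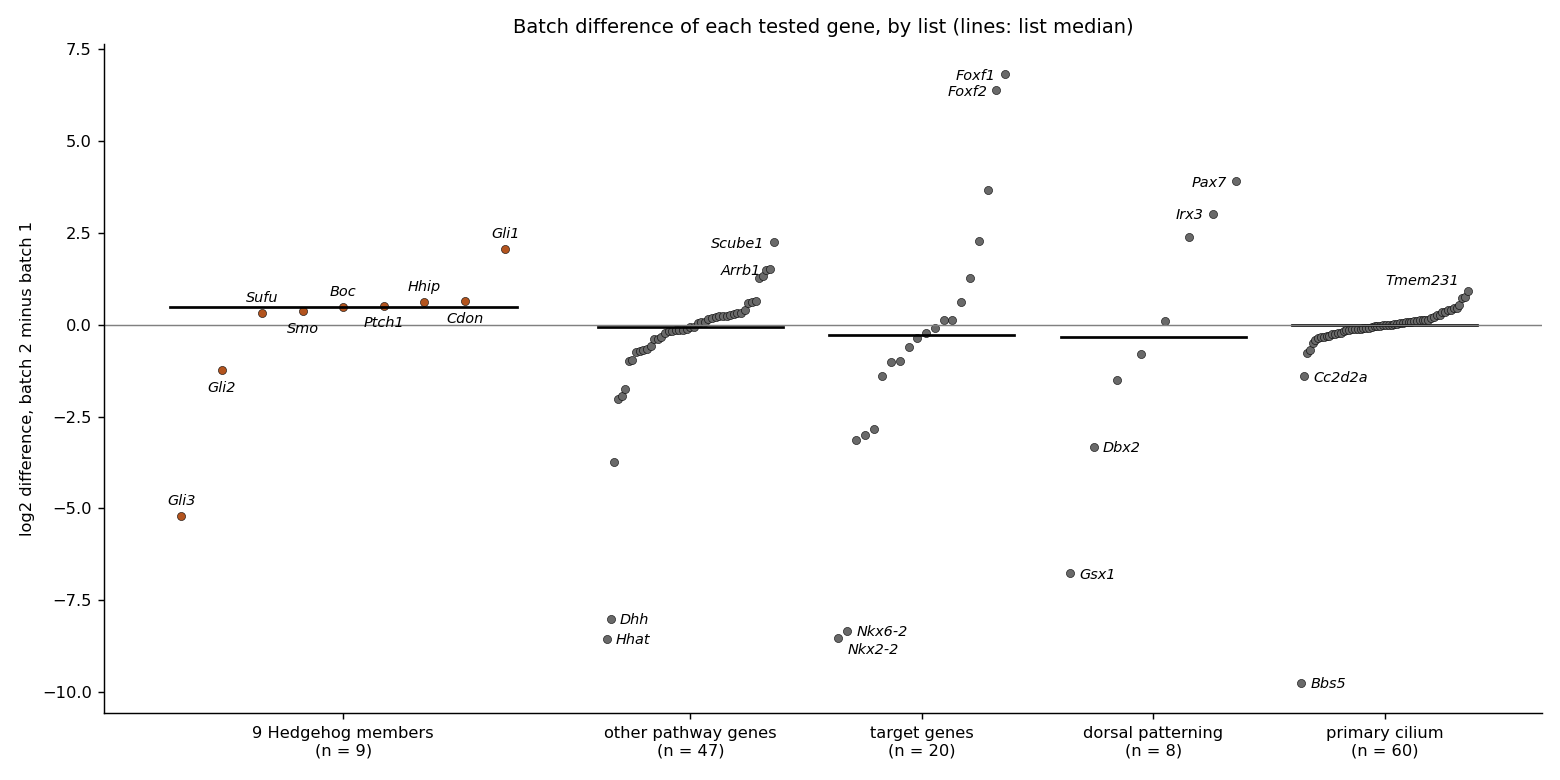
Fitted log2 difference, batch 2 minus batch 1, of every tested gene of the 9 Hedgehog members (orange) and of 4 lists (grey), each ordered from lowest to highest, with the list median as a black line. Gli3 at -5.21 and Gli1 at 2.06 lie apart from the other members, and in the cilium list 2 genes, Bbs5 and Cc2d2a (-1.41), differ by more than 1 in size; values of genes with 0 or 1 count in a batch depend on the fit and are no bounds.

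Treatment with the gRNA gave no call in any member. In edgeR's quasi-likelihood test over both batches, 0 of the 9 members were called and 0 had an unadjusted p under 0.05. The background was the same: 0 of 17704 genes were called (0%), 230 had an unadjusted p under 0.05, DESeq2 and limma-voom each called 0, and DESeq2 had 285 genes at an unadjusted p under 0.05. Within batch 1 the test called 0 of 16988 genes (0%) with 147 at an unadjusted p under 0.05, and within batch 2 it called 0 of 15647 (0%) with 116. The difference of the gRNA effect between batches was called in 0 of 18279 genes (0%), with 236 at an unadjusted p under 0.05 by edgeR and 0 called and 261 at that level by DESeq2. In each of these edgeR tests the genes at that level were well under the share of 0.05 that uniform p-values would give. The p-values thus lean high, and the cause was not tested.

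The intervals come from these same fits and show what sizes remained possible for each member, given the fits' estimate of the spread. Over both batches the log2 fold change, gRNA against control, was -0.08 for Smo (95% interval -0.23 to 0.07), -0.15 for Sufu (-0.31 to 0.02) and -0.20 for Ptch1 (-0.47 to 0.07). For Gli2 it was -0.14 (-0.48 to 0.21), for Boc -0.16 (-0.51 to 0.19) and for Cdon 0.20 (-0.23 to 0.63). For Gli3 it was 0.22 (-0.28 to 0.73), for Hhip 0.13 (-0.43 to 0.70) and for Gli1 -0.43 (-1.11 to 0.24). The signal transducer Smo was thus bounded most narrowly and the weakly expressed Gli1 least. Among the other 47 tested pathway genes 0 were called and 1 had an unadjusted p under 0.05, Rab23, a ciliary GTPase gene that limits the pathway, named after its value was seen (log2 fold change 0.15, unadjusted p = 0.0497 by edgeR).

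Gli3 was the member with the widest gap between the batches in its gRNA effect. In batch 2 all 3 gRNA libraries, at 2.18, 2.91 and 3.76 CPM, were above the 3 control libraries, at 1.24, 1.5 and 2.16 CPM, the closest pair by a narrow margin; over all genes tested in that batch, 2.85% had gRNA libraries wholly above. The log2 fold change there was 0.84 (95% interval 0.08 to 1.59), with an unadjusted p of 0.0339 and an adjusted p of 0.998 by edgeR. It rests on 17 to 52 counts per library. In batch 1 the groups overlapped and the log2 fold change was -0.04 (95% interval -0.67 to 0.58). Between batches, that effect differed by 0.87 (95% interval -0.14 to 1.87; unadjusted p = 0.0844, adjusted p = 1.00 by edgeR), so the effect was not shown to differ between batches.

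Other members had groups apart in one batch without a call. In batch 1, gRNA libraries of Ptch1 and Smo lay below the control libraries, with log2 fold changes of -0.11 and -0.12, as did those of 2.21% of the 16988 genes tested there. In batch 2 those of Gli2 and Sufu did, with -0.27 and -0.18, and those of 2.31% of the 15647 genes tested there. The unadjusted p of these 4, by edgeR within that batch, was 0.299, 0.208, 0.0946 and 0.119. For Gli1 in batch 2 the log2 fold change was -0.50 with control library 3 and 0.10 without it, for Ptch1 -0.27 and 0.02, and for Boc -0.32 and 0.00.

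**Figure D4:**
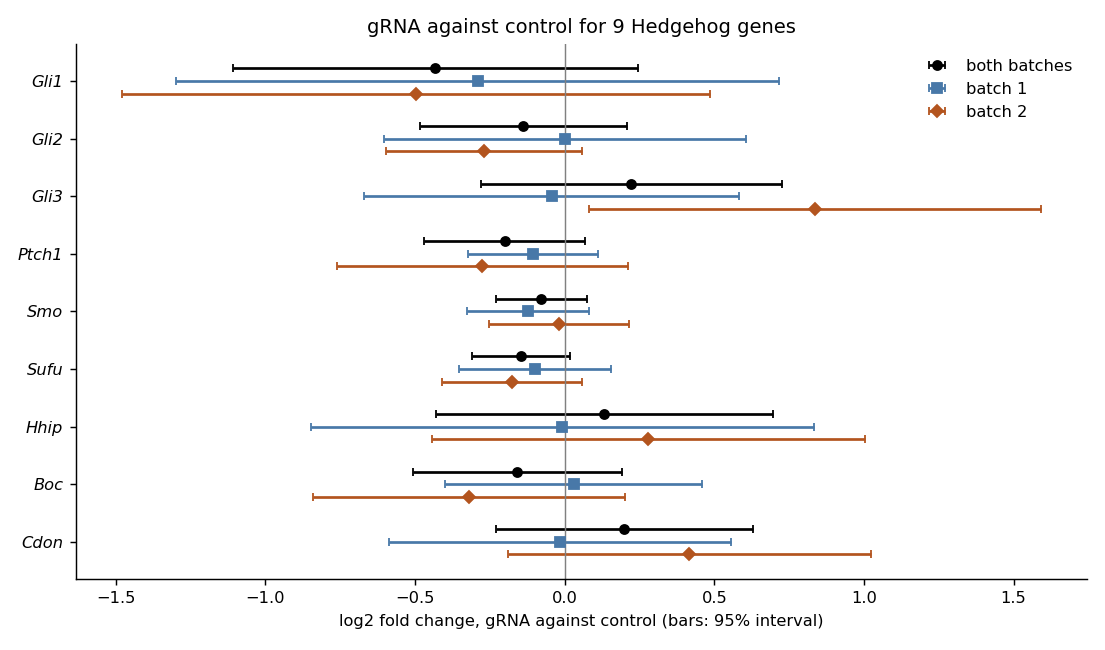
Fitted log2 fold change, gRNA against control, of each of the 9 members over both batches (black circles), in batch 1 (blue squares) and in batch 2 (orange diamonds), with 95% intervals as bars. All intervals include 0 except that of Gli3 in batch 2, which runs from 0.08 to 1.59 and whose adjusted p is 0.998. That interval rests on 17 to 52 counts per library, and the intervals are not adjusted for their number.

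Within each batch, a library numbered 3 was the highest for most members, for some by a narrow margin. For Ptch1 in batch 1, control library 3 was at 266 CPM and control library 2 at 264 CPM. For Sufu, gRNA library 3 of batch 2 was the lowest of its batch. In batch 1, control library 3 was the highest library for 7 of the 9 members and gRNA library 3 for Gli2, while control library 2 was the highest for Smo. Control library 3 was also the deepest library, with 19454390 counts in genes. The lowest library of every member but Smo was gRNA library 1, with 10515276. Depth was 17730086 in gRNA library 2 and 17143345 in gRNA library 3. Over all genes, the library with the highest value was not counted. The astrocyte marker sum was at 429 CPM in control library 3 and 443 CPM in gRNA library 3 of batch 1, against 642 to 670 CPM in the other 4 libraries, and Thy1 was at 22.2 and 24.1 CPM against 62.9 to 74.9 CPM. In batch 2, control library 3 was the highest for 5 members (Gli1, Gli2, Ptch1, Sufu and Boc) and gRNA library 3 for the other 4 (Gli3, Smo, Hhip and Cdon). Both libraries numbered 3 of batch 2 are those with Gfap at 31.3 and 40.8 CPM, and the Notch target Hes5 was at 67.8 and 37.8 CPM in them, against 11.2 to 23.8 CPM in the other 4. The part of these markers and of library depth in the members' values was not tested.

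In control library 3 of batch 2, members split into those high and those low. As a deviation from the batch mean on the scale of log2(CPM + 1), Gli1 was at 0.94, Boc at 0.70 and Ptch1 at 0.65 in that library, while Cdon was at -0.70 and Gli3 at -0.51. In gRNA library 3 of the same batch Hhip was at 0.80, Cdon at 0.62 and Gli3 at 0.58, while Gli1 was at 0.15, Ptch1 at 0.06 and Boc at -0.10. So Gli3 and Cdon were low in the control library and high in the gRNA library, and Gli1, Ptch1 and Boc had their peak in the control library.

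**Figure D5:**
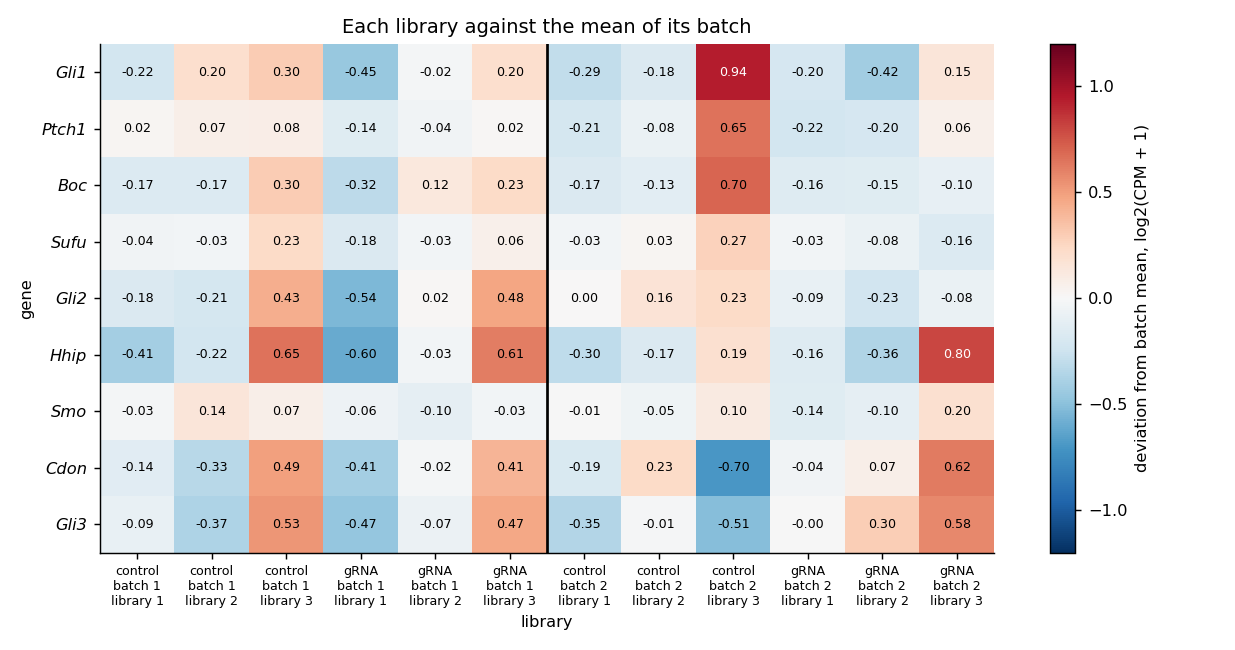
Deviation of each member from the mean of its batch, in log2(CPM + 1), with genes in rows and the 12 libraries in columns, red for above and blue for below the batch mean; the black line separates batch 1 from batch 2. The column of control library 3 of batch 2 holds the highest value, 0.94 for Gli1, and the lowest, -0.70 for Cdon.

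Some members deviated together from library to library. Over the 12 libraries, Gli1 and Ptch1 had a Pearson correlation of 0.926 and a Spearman correlation of 0.825, and Pearson correlations of 0.836 within batch 1 and 0.985 within batch 2 (6 libraries each). Without the 2 libraries farthest from the median of Gli1, which are control libraries 3 of both batches, the Pearson correlation was 0.796. Gli3 and Cdon had 0.942 and 0.965, with Pearson correlations of 0.996 within batch 1 and 0.904 within batch 2, and 0.898 without the 2 farthest libraries. Of all pairs of members over the 12 libraries, Gli3 with Cdon and Gli1 with Ptch1 had the highest Pearson correlations. Genes outside the members reached higher ones with Gli1 and with Ptch1, as given below. Gli1 and Gli3 had a Pearson correlation of 0.676 in batch 1, -0.41 in batch 2 and 0.000439 over both. All of these are descriptions: the values of a library share its depth and scaling, and 1 library carries much of the spread in batch 2.

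Genes whose deviations were most like those of 4 members were named by the Pearson correlation over the 12 libraries, among 10711 or 10712 genes with a mean of at least 10 CPM. For Gli1 they were Sfxn3 (0.983), Tax1bp3 (0.974) and Timp2 (0.972), and for Ptch1 they were 4930402H24Rik (0.988), Npc1 (0.985) and Tom1l2 (0.985). For Gli3 they were Cdon (0.942), itself a member, Bend4 (0.941) and Dock3 (0.94). For Gli2 they were Actn1 (0.949), Smcr8 (0.948) and Rfx2 (0.941). None of these 11 genes outside the members had the batch difference of Gli3: mean Bend4 was 65.0 CPM in batch 1 and 86.8 CPM in batch 2, and mean Dock3 was 48.9 and 89.0 CPM.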

How the data were processed

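Total RNA was made into stranded, ribosomal-RNA-depleted libraries, per the labels' protocols. The authors deposited unnormalised read counts for Ensembl genes, 1 file for each of 12 libraries, and used Trimmomatic, STAR, SAMtools and HTSeq on GRCm39, per the submitters' processing notes, with versions, annotation and strand setting of the counting not given in the sources used here, so overlapping and antisense genes may share reads. Symbols matched 51880 of the gene identifiers (90.8%). Reads outside genes (19% to 25.1% in batch 1, 8.83% to 12.7% in batch 2) and ambiguous reads (3.22% to 4.06%) were left out of library sizes. Over 66 library pairs, 0 were identical.

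The test was that of edgeR 4.0.16 (R 4.3.3): filterByExpr with a minimum count of 10, TMM scaling, quasi-likelihood test with batch and treatment as terms, Benjamini-Hochberg adjustment over all genes tested at 0.05; each batch alone; and the interaction. The script was tested on simulated data. Intervals are 95%, from the fit; those of near-zero genes cover counting error only. Alternatives were DESeq2 1.42.0 and its size factors, limma-voom (limma 3.58.1), no low-count filter, no batch term, total counts, either treatment alone, a minimum fold of 1.5 and leaving out each library; leaving out both libraries numbered 3 of a batch was chosen after seeing the data. The members and lists were chosen with earlier results of these data known. Named genes are all members, all ligands and receptors, set genes of each list, and the 3 genes most like Gli1, Gli2, Gli3 and Ptch1; 1 gene under this rule is not reported here. The footprint table was not analysed here: it lists transcripts by identifiers that the sources used here do not pair with genes, and its library names match no label.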

Additional observations from a re-analysis of the deposited data

How the results depend on the processing

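No member was called for gRNA against control, over both batches, in either batch or for the difference between batches, under any of the alternatives run, including leaving out each library. With no low-count filter 1 gene of all was called for gRNA against control over both batches, and it is no member. The log2 batch differences of all 9 members kept their direction in every alternative run; that of Gli3 was -5.67 in control libraries alone and -4.80 in gRNA libraries alone. The causes of the changes below were not tested.

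Counts of other pathway genes called higher and lower in batch 2, 16 and 18, fell to 5 and 9 with a minimum fold of 1.5, and the first to 8 with control libraries alone, where fewer samples are tested; leaving out each library gave 15 to 18 and 15 to 19. Values near 0 changed sign. The log2 batch difference was 0.017 for Ift88 and 0.15 for Kif3a with control libraries alone, 0.0097 for Kif3a with no low-count filter and 0.044 with total counts, and -0.034 for Pax6 with gRNA libraries alone. The gRNA effect on Gli2 in batch 1 was -0.0083 with DESeq2's size factors, and that on Gli3 over both batches -0.023 with no batch term. Without both libraries numbered 3 of batch 2, it was 0.013 for Boc, -0.024 for Cdon and -0.019 for Hhip, and its difference between batches -0.0042 for Cdon, 0.19 for Gli1, -0.0093 for Hhip, 0.042 for Ptch1 and 0.0495 for Sufu.

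Leaving out each library moved the batch difference of Kif3a between -0.14 and 0.0200. The gRNA effect over both batches ran from -0.23 to 0.019 for Boc and from -0.091 to 0.36 for Hhip. In batch 1 it ran from -0.0901 to 0.22 for Boc, -0.26 to 0.28 for Cdon, -0.63 to 0.016 for Gli1, -0.29 to 0.26 for Gli2, -0.34 to 0.26 for Gli3 and -0.41 to 0.45 for Hhip. In batch 2 it ran from -0.47 to 0.0048 for Boc, -0.75 to 0.10 for Gli1, -0.18 to 0.49 for Hhip, -0.43 to 0.0196 for Ptch1 and -0.14 to 0.039 for Smo. Its difference between batches ran from -0.53 to 0.41 for Gli1, -0.54 to 0.011 for Gli2, -0.19 to 0.68 for Hhip, -0.33 to 0.14 for Ptch1, -0.015 to 0.16 for Smo and -0.19 to 0.017 for Sufu. Each batch holds 3 libraries per treatment, and Gli1 and Gli3 rest on few counts in batch 1 and batch 2. No paired analysis was possible because the RNA-seq libraries carry no replicate number in the labels; only the footprint libraries do, and those were not analysed here. The other ways of computing footprint levels (the longest coding sequence, or without its ends) were not run for the same reason.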
